A study of Mus musculus with 12 samples.

Results

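Sox9 and 7 genes that work with it in cartilage were followed across 4 groups of transfected mouse cells. The genes were taken by name, with earlier results of these data known: Sox9, Sox5, Sox6, Arid5a, Arid5b, Trps1, Mef2c and Wwp2. They are 8 of the 47643 genes in the deposited counts, and all 8 passed the filter on low counts that left 13229 genes for testing. Their lowest count in any library was 56, so none passed through 1 high group alone. The cells were C3H/10T1/2, mouse embryonic cells with the shape of fibroblasts, which can turn towards cartilage, bone or fat and which the labels also describe as sarcoma. All groups carried a plasmid, delivered without a virus by a polymer reagent, and RNA was taken 3 days later. The reference plasmid BMP2ADV is named for bone morphogenetic protein 2, a secreted inducer of cartilage and bone. The plasmids BMP2ADV20a, BMP2ADV148b and BMP2ADV590 are hybrids named after the microRNAs miR-20a, miR-148b and miR-590. Each group had 3 libraries, and no untransfected group was analysed here. The labels do not say whether the 3 came from separate cultures, so p-values measure only the spread between these libraries, which may be technical.

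Sox9 is the DNA-binding factor without which no cartilage forms. Sox5 and Sox6 lack an activation domain of their own, bind near Sox9 on cartilage enhancers and strengthen its action on matrix genes such as Col2a1 and Acan. Arid5a and Arid5b are ARID-domain proteins that join Sox9, Arid5b by bringing in the histone demethylase Phf2. Trps1 is a GATA-type repressor of the growth plate. Mef2c drives the later, hypertrophic stage, while Wwp2 is a ubiquitin ligase gene that Sox9 activates directly and that carries the cartilage microRNA miR-140 within its span.

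The microRNAs differ in the seed, the stretch by which a microRNA finds its targets. The mature sequences are those of RefSeq on GRCm38.p6, printed 5′ to 3′ with the seed, bases 2 to 8, in capitals. The third line is miR-21a-5p, which is shown because miR-590-5p is known to share its seed. Which arm of miR-590 the plasmid was built to yield was not given in the sources used here, and sites of miR-590-3p were not searched.
mmu-miR-20a-5p: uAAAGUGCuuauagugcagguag
mmu-miR-148b-3p: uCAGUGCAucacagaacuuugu
mmu-miR-21a-5p: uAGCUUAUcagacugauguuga

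The letters complementary to each seed were looked for on the sense strand of the longest 3′ UTR of each gene in GENCODE M21. The letters GCACTTT, for miR-20a, stood once in Trps1, and TGCACTG, for miR-148b, stood in Trps1 at 2 places. The other 7 genes held neither. The letters ATAAGCT, for the seed that miR-590-5p shares with miR-21a, stood in Sox6 at 3 places, in Mef2c at 2 and in Sox5 at 1. Sox9 and Wwp2, whose UTRs span 2250 and 1609 bases, held none of the 3 sets of letters, and neither did Arid5a or Arid5b. The sites are printed because these are the only matches among the 8 genes, each with 8 bases on either side and the match in capitals.
Trps1, miR-20a site, chr15:50655822-50655828, minus strand: tttgtaacGCACTTTgagatcct
Trps1, first miR-148b site, chr15:50659254-50659260, minus strand: ctactggaTGCACTGtcagatta
Trps1, next miR-148b site, chr15:50658110-50658116, minus strand: tatcaaagTGCACTGtactgatc
Sox6, first miR-590-5p seed site, chr7:115475287-115475293, minus strand: tgctgctgATAAGCTcttgccac
Sox6, next seed site, chr7:115474912-115474918, minus strand: tgctctccATAAGCTgtttaagg
Sox6, last seed site, chr7:115472790-115472796, minus strand: cagttccaATAAGCTgactttac
Mef2c, first seed site, chr13:83663821-83663827, plus strand: tcaaaaggATAAGCTgtggggtt
Mef2c, last seed site, chr13:83666884-83666890, plus strand: acagcggcATAAGCTggactttg
Sox5, seed site, chr6:143833016-143833022, minus strand: agatcgaaATAAGCTatgggtta

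Long UTRs hold such letters often. Of 11578 tested genes with a UTR, 15.1% held the miR-20a letters, 15.7% those of miR-148b and 8.18% those of the miR-590-5p seed, at a median UTR length of 1219 bases. The UTR of Trps1 is 5923 bases long, and 46.2% of genes within 20% of that length held a miR-20a match and 44.3% a miR-148b match. For ATAAGCT the share among genes of like length was 29.7% for Sox6, 23.9% for Sox5 and 22.0% for Mef2c. These matches describe the letters in those windows and nothing more.

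The 8 genes split into 5 that rose with BMP2ADV590 and 3 that were not called in any comparison. Sox9, Sox5, Sox6, Mef2c and Wwp2 were higher in BMP2ADV590 than in BMP2ADV at an adjusted p under 0.05, in edgeR's quasi-likelihood test adjusted by Benjamini-Hochberg over all genes tested. That is 5 of 8 genes higher and 0 lower, where 4.37% of all tested genes were called higher and 8.26% were called in either direction. The 8 were chosen with earlier results of these data known, so this count is not independent of the data. In bulk RNA, more cells of a type and more RNA per cell cannot be told apart. The median log2 fold change of the 8 was 0.70, against 0.00 over all tested genes. Levels are given as normalised counts-per-million (CPM), and each log2 fold change is the first group named minus the second.

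**Figure D1:**
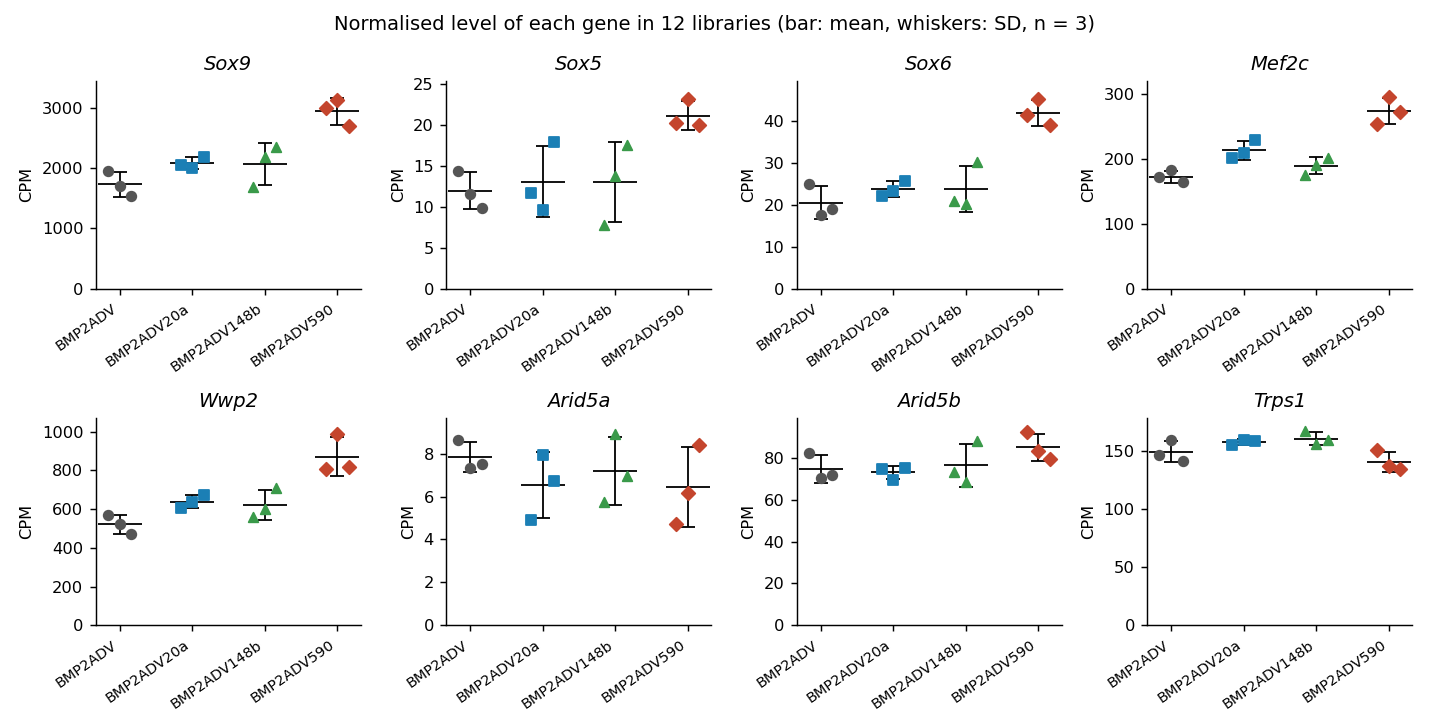
Normalised level (CPM, linear axis from 0) of the 8 genes in each of the 12 libraries, by group, with the bar at the mean of 3 libraries and whiskers of 1 SD. In Sox9, Sox5, Sox6, Mef2c and Wwp2 the 3 BMP2ADV590 libraries lie above all 9 others, while in Arid5a the 4 groups overlap. Over all tested genes BMP2ADV590 lies above BMP2ADV for 12.5%, above BMP2ADV20a for 9.8% and above BMP2ADV148b for 10.4%. The share above all 9 at once was not counted.

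Sox9 (ENSMUSG00000000567, chr11:112782224-112787760, plus strand) stood at 1948, 1702 and 1530 CPM in the BMP2ADV libraries. It was at 2053, 2005 and 2187 CPM in BMP2ADV20a and at 1679, 2187 and 2343 CPM in BMP2ADV148b. The BMP2ADV590 libraries held 2998, 3129 and 2692 CPM. All 3 of them were above every other library, as BMP2ADV590 was for 12.5% of all tested genes against BMP2ADV, 9.8% against BMP2ADV20a and 10.4% against BMP2ADV148b, and BMP2ADV148b replicate 1 lay within the range of the reference group. Sox9 was 1.70-fold higher in BMP2ADV590 than in BMP2ADV (log2 fold change 0.77, SE 0.10, adjusted p = 2.87e-05). It was also higher than in BMP2ADV20a (0.50, adjusted p = 0.00807) and than in BMP2ADV148b (0.51, adjusted p = 0.0028).

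For the other hybrids, Sox9 was not called against the reference. The log2 fold change was 0.27 in BMP2ADV20a (95% interval 0.06 to 0.48, adjusted p = 0.339) and 0.26 in BMP2ADV148b (0.06 to 0.47, adjusted p = 0.448). All 3 BMP2ADV20a libraries nevertheless lay above all 3 BMP2ADV libraries, as they did for 7.76% of all tested genes. Between BMP2ADV148b and BMP2ADV20a the log2 fold change of Sox9 was -0.01 (95% interval -0.22 to 0.20).

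Sox6 (ENSMUSG00000051910, chr7:115470872-116038796, minus strand) had the largest fold change of the 8 genes in BMP2ADV590 against BMP2ADV. It was at 25.1, 17.5 and 19.1 CPM in BMP2ADV, at 22.2, 23.3 and 25.9 in BMP2ADV20a and at 20.9, 20.4 and 30.3 in BMP2ADV148b. In BMP2ADV590 it reached 41.6, 45.4 and 39.2 CPM. The highest library of another group, BMP2ADV148b replicate 3, was below all 3. Sox6 rose 2.04-fold against BMP2ADV (log2 fold change 1.03, SE 0.153, adjusted p = 0.000119). It was higher than in BMP2ADV20a by 0.83 (adjusted p = 0.00426) and than in BMP2ADV148b by 0.82 (adjusted p = 0.00169).

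Sox5 (ENSMUSG00000041540, chr6:143828425-144781977, minus strand), the close relative of Sox6, was measured with less precision, from 76 to 286 counts a library. It was at 14.3, 11.6 and 9.84 CPM in BMP2ADV, at 11.6, 9.58 and 17.9 in BMP2ADV20a and at 7.78, 13.8 and 17.5 in BMP2ADV148b. In BMP2ADV590 it was at 20.2, 23.1 and 19.9 CPM, above all other libraries. Sox5 rose 1.76-fold against BMP2ADV (log2 fold change 0.81, SE 0.232, adjusted p = 0.0297). Its values against BMP2ADV20a (0.70, adjusted p = 0.127) and BMP2ADV148b (0.70, adjusted p = 0.0943) missed the threshold, as did the test of any difference among the 4 groups (adjusted p = 0.0674). The call against BMP2ADV was lost without BMP2ADV replicate 2 (adjusted p = 0.106), BMP2ADV replicate 3 (0.149), BMP2ADV590 replicate 2 (0.0669) or BMP2ADV590 replicate 3 (0.0596). Sox5os1, an antisense gene that shares 1330 exon bases with Sox5, had 0 counts in all 12 libraries.

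Mef2c (ENSMUSG00000005583, chr13:83504034-83667080, plus strand), the driver of hypertrophy genes, stood at 172, 182 and 164 CPM in BMP2ADV. BMP2ADV20a held 202, 209 and 229 CPM, BMP2ADV148b 176, 191 and 202, and BMP2ADV590 254.5, 295.5 and 272 CPM. BMP2ADV590 was above all other libraries, and BMP2ADV20a lay above BMP2ADV without overlap, as it did for 7.76% of all tested genes. Mef2c rose 1.59-fold in BMP2ADV590 against BMP2ADV (log2 fold change 0.67, SE 0.0829, adjusted p = 1.56e-05). It was higher than in BMP2ADV148b by 0.53 (adjusted p = 0.000303) and than in BMP2ADV20a by 0.36 (adjusted p = 0.0199). In BMP2ADV20a against BMP2ADV the log2 fold change was 0.30 (95% interval 0.13 to 0.47, adjusted p = 0.125 in edgeR and 0.036 in DESeq2).

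Wwp2 (ENSMUSG00000031930, chr8:107436365-107558595, plus strand), the ubiquitin ligase gene, stood at 571, 522 and 469 CPM in BMP2ADV. It was at 606, 637.5 and 673 CPM in BMP2ADV20a, at 559, 599 and 707 in BMP2ADV148b and at 806, 985 and 817 in BMP2ADV590. The BMP2ADV590 libraries were again above all others, with replicate 2 the highest. Wwp2 rose 1.67-fold against BMP2ADV (log2 fold change 0.74, SE 0.0945, adjusted p = 2.17e-05). It was higher than in BMP2ADV148b by 0.48 (adjusted p = 0.00248) and than in BMP2ADV20a by 0.44 (adjusted p = 0.0113). Its value in BMP2ADV20a against BMP2ADV was 0.29 (adjusted p = 0.237) and in BMP2ADV148b 0.26 (adjusted p = 0.409), neither of them called.

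The microRNA gene Mir140 (ENSMUSG00000065439, chr8:107551244-107551313) lies within the span of Wwp2 on the same strand. It shares its 70 bases with the exon of a Wwp2 transcript in the annotation. The BMP2ADV libraries gave 4, 3 and 1 counts, those of BMP2ADV20a 5, 0 and 2, those of BMP2ADV148b 4, 1 and 3, and those of BMP2ADV590 4, 13 and 4. These 44 counts are too few for a comparison, and libraries of polyadenylated RNA do not read mature microRNAs.

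The Arid5 genes were not called. Arid5b (ENSMUSG00000019947, chr10:68092520-68278740, minus strand) was at 82.4, 70.3 and 71.7 CPM in BMP2ADV and at 74.6, 69.7 and 75.4 CPM in BMP2ADV20a. BMP2ADV148b gave 73.2, 68.4 and 88.2 CPM for it, and BMP2ADV590 gave 92.4, 83.3 and 79.6. The groups overlapped, except that BMP2ADV590 lay above BMP2ADV20a, as it did for 9.8% of all tested genes. Its log2 fold change in BMP2ADV590 was 0.19 against BMP2ADV (95% interval -0.02 to 0.40, adjusted p = 0.307) and 0.22 against BMP2ADV20a (adjusted p = 0.324). Arid5a (ENSMUSG00000037447, chr1:36307733-36324029, plus strand) was at 8.65, 7.32 and 7.54 CPM in BMP2ADV and at 4.90, 7.93 and 6.75 CPM in BMP2ADV20a. BMP2ADV148b gave 5.73, 8.91 and 6.94 CPM for it, and BMP2ADV590 gave 4.73, 6.18 and 8.41. All 4 groups overlapped. The log2 fold change in BMP2ADV590 against BMP2ADV was -0.30, with a 95% interval from -0.82 to 0.22 that holds changes of either sign, and counts of 56 to 117 a library limit it.

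Trps1 (ENSMUSG00000038679, chr15:50654752-50890463, minus strand), the gene with the miR-20a and miR-148b matches, kept within a narrow band, from 135 to 167 CPM over all 12 libraries. It was at 147, 159 and 142 CPM in BMP2ADV and at 155, 160.0 and 158 CPM in BMP2ADV20a. BMP2ADV148b gave 167, 156 and 159 CPM for it, and BMP2ADV590 gave 151, 137 and 135. The log2 fold change against BMP2ADV was 0.08 in BMP2ADV20a (95% interval -0.08 to 0.24), 0.11 in BMP2ADV148b (-0.06 to 0.27) and -0.08 in BMP2ADV590 (-0.24 to 0.08). All 3 BMP2ADV590 libraries were below the BMP2ADV20a libraries (-0.16, adjusted p = 0.341) and below the BMP2ADV148b libraries (-0.19, adjusted p = 0.203), as they were for 9.25% and 10.4% of all tested genes. Neither difference was called.

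**Figure D2:**
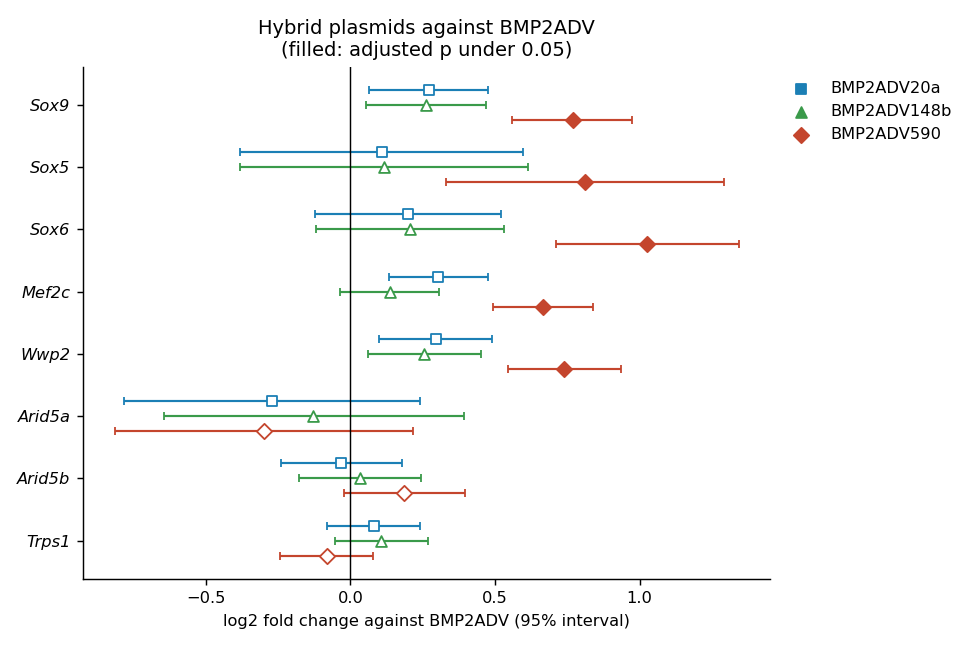
Log2 fold change of the 8 genes in each hybrid group against BMP2ADV (points) with its 95% interval from the edgeR fit (whiskers), filled where the adjusted p is under 0.05. Only BMP2ADV590 has filled points, for Sox9, Sox5, Sox6, Mef2c and Wwp2, from 0.67 to 1.03.

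Set against the other hybrids, 4 of the 8 genes were higher in BMP2ADV590: Sox9, Sox6, Mef2c and Wwp2. Against BMP2ADV20a the share called over all tested genes was 2.17%, with 1.29% higher, and against BMP2ADV148b it was 4.43%, with 2.46% higher. The same 4 genes were called in the test of any difference among the 4 groups, which called 6.25% of all genes. Against BMP2ADV20a the calls of Sox9, Mef2c and Wwp2 were lost without BMP2ADV20a replicate 1 (adjusted p = 0.0639, 0.162 and 0.107) or without replicate 2 (0.0683, 0.103 and 0.0688). That of Mef2c was also lost without BMP2ADV590 replicate 3 (0.0695).

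Neither BMP2ADV20a nor BMP2ADV148b had a called gene among the 8 against BMP2ADV. For BMP2ADV20a edgeR called 0 of 8, against 0.476% of all tested genes, DESeq2 called 1 and limma-voom 0. An unadjusted p under 0.05 was found for 3 of the 8, against 9.87% of all tested genes. For BMP2ADV148b edgeR, DESeq2 and limma-voom each called 0 of 8, against 0.249% of all tested genes in edgeR, and 2 of the 8 had an unadjusted p under 0.05, against 8.43% of all. Between those hybrids, all 3 tools called 0 of 8, against 0.559% of all genes in edgeR, and 0 had an unadjusted p under 0.05, against 7.79% of all. With the filter on low counts left out, edgeR called 2 of the 8 in BMP2ADV20a (Sox9, adjusted p = 0.0195, and Wwp2, 0.0219) and 1 in BMP2ADV148b (Sox9, adjusted p = 0.0455).

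A ratio within each library needs no scaling by library size, and this measure was added after the levels had been seen. For every 1000 Sox9 counts there were 302 ± 7.70 Wwp2 counts in BMP2ADV and 307 ± 11.3 in BMP2ADV20a (SD, n = 3). BMP2ADV148b had 303 ± 29.3 and BMP2ADV590 296 ± 23.9. Over the 12 libraries this ratio ran from 269 to 333, a 1.24-fold range, while the Wwp2 level itself ran over a 2.10-fold range and that of Sox9 over a 2.05-fold range. The ratio thus varied less over the 12 libraries than either level. Mef2c per 1000 Sox9 counts was at 101 ± 10.9, 102 ± 3.56, 92.8 ± 10.4 and 93.5 ± 8.15 in the same order of groups, a 1.26-fold range over the 12 libraries.

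Sox6 per 1000 Sox9 counts was 14.3 ± 0.382 in BMP2ADV590, above 11.9 ± 1.40 in BMP2ADV, 11.4 ± 0.538 in BMP2ADV20a and 11.6 ± 1.96 in BMP2ADV148b. Trps1 was at 48.1 ± 3.63 in BMP2ADV590 against 87.2 ± 10.3, 76.0 ± 3.68 and 79.6 ± 17.3 in the other groups. The denominator rose in BMP2ADV590, so the ratio of a gene whose level does not change is lower there, and the level of Trps1 itself was not called. The log2 ratio to Sox9 in BMP2ADV590 minus BMP2ADV was 0.28 for Sox6, -0.86 for Trps1, -0.59 for Arid5b and -1.09 for Arid5a, without overlap between the groups' libraries. It was 0.06 for Sox5, -0.11 for Mef2c and -0.03 for Wwp2, with overlap. Over the other 13228 tested genes this ratio was lower in BMP2ADV590 without overlap for 77.2% and higher for 0.612%. Trps1, Arid5b and Arid5a shared their lower ratio with most tested genes. With 3 libraries against 3 an exact two-sided permutation test cannot go below p = 0.1, the value it gave for the first 4 genes (adjusted p = 0.175 over 7 genes). For the last 3 the exact permutation p was 0.5, 0.5 and 0.8.

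**Figure D3:**
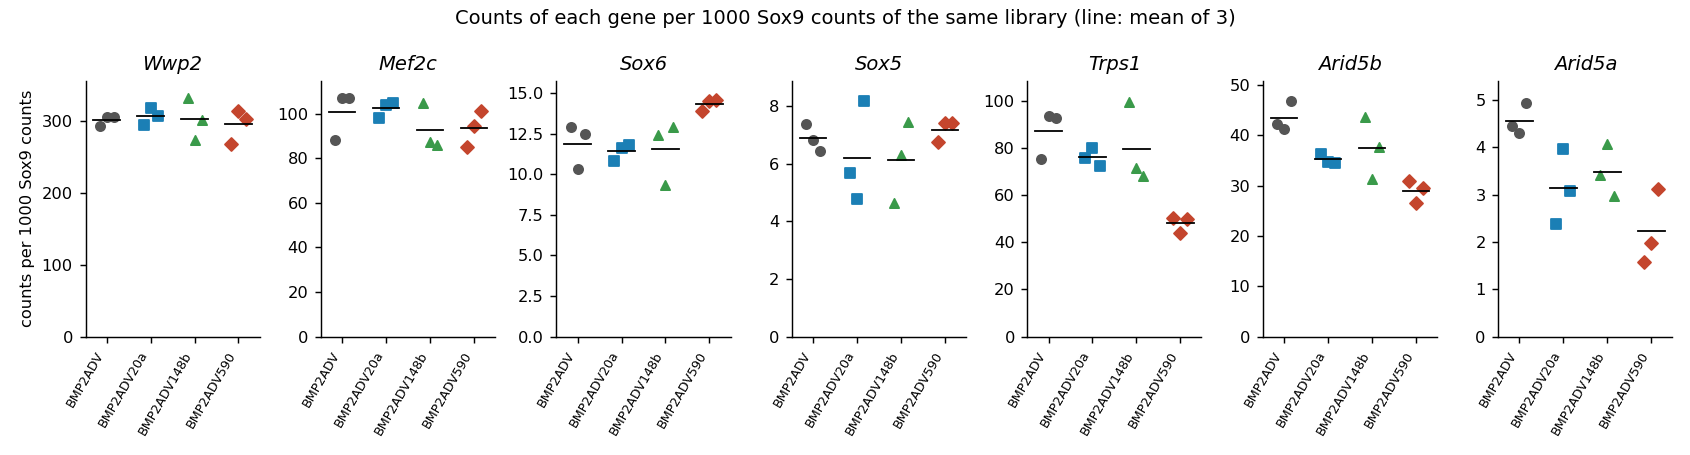
Counts of 7 genes per 1000 Sox9 counts of the same library (linear axes from 0), by group, with a line at the mean of 3 libraries. Wwp2 keeps between 269 and 333 in all 12 libraries, while Trps1 is at 43.9 to 50.3 in BMP2ADV590 and at 68.0 or more in the others.

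The genes whose pattern over the 12 libraries was most like that of Sox9 were then named. The measure was the root mean square difference of log2 CPM, each gene centred on its mean over the 12 libraries, among 8743 tested genes with a mean of at least 10 CPM. For Sox9, whose own SD on this scale was 0.311, the smallest differences were those of Mpzl1 (0.0782), Wwp2 (0.0820), Raph1 (0.0890), Slc44a2 (0.0933) and Fgfrl1 (0.0964). Wwp2 thus had 1 gene ahead of it, while Mef2c had 32, Sox6 208, Arid5b 708, Sox5 758, Trps1 5140 and Arid5a 8030. For Sox6 the nearest genes were Msi2 (0.123) and Wfdc18 (0.138), for Mef2c Cryab (0.0631) and Slc35d1 (0.0731), and for Wwp2 Mpzl1 (0.0577) and Cryab (0.0665). The measure favours abundant genes, whose counting error is small, and says nothing of shared function.

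Most of the tested genes that Sox9 is known to activate in cartilage rose with BMP2ADV590. Of 25 listed targets 18 were tested, and 13 were called higher in BMP2ADV590 than in BMP2ADV and 0 lower. Comp, Matn1, Matn3, Snorc, Ucma, Chad and Mia were below the filter, with group means of at most 0.81 CPM. Over the 18 the median log2 fold change was 0.88. Over all tested genes 4.37% were called higher and the median was 0.00. The list was chosen with earlier results of these data known. The 13 comprise the collagen genes Col2a1, Col9a1, Col9a2, Col11a1, Col11a2 and Col27a1, the proteoglycan gene Acan, and Hapln1, Papss2, Fgfr3, Cytl1, Susd5 and Creb3l2. Papss2, which makes the sulfate donor for proteoglycans, rose from 238 ± 33.6 to 542.5 ± 61.0 CPM (log2 fold change 1.19, adjusted p = 8.62e-07). Hapln1, the link protein that ties aggrecan to hyaluronan, rose from 91.9 ± 22.7 to 217 ± 9.85 CPM (1.23, adjusted p = 7.96e-06). Col2a1, the main cartilage collagen gene, rose from 1167 ± 83.0 to 1785 ± 52.0 CPM (0.61, adjusted p = 4.26e-05), and Col27a1 from 321 ± 56.2 to 725 ± 75.4 CPM (1.18, adjusted p = 4.71e-05).

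The same list gave 9 genes higher than in BMP2ADV20a and 11 higher than in BMP2ADV148b, with 0 lower in either, where 1.29% and 2.46% of all tested genes were higher. DESeq2 called 7 and 10 of them and limma-voom 10 and 12. Those comparisons share the BMP2ADV590 libraries with the one above. Against BMP2ADV, edgeR called 0 of the 18 in BMP2ADV20a, with 5 at an unadjusted p under 0.05, 1 by DESeq2 and 0 by limma-voom. Over all tested genes edgeR called 0.476% there, and 9.87% had an unadjusted p under 0.05. In BMP2ADV148b all 3 tools called 0, and 0 had an unadjusted p under 0.05, against 8.43% of all tested genes.

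Some genes of the hypertrophic stage, which Mef2c and Runx2 bring on in the growth plate, rose as well. Of 15 listed, 10 were tested and 4 were higher in BMP2ADV590 than in BMP2ADV, with 0 lower and a median log2 fold change of 0.50, where 4.37% of all tested genes were called higher. A positive value was found for 7 of the 10. Spp1 (37.1 and 30.2 CPM in BMP2ADV and BMP2ADV590), Vegfa (27.9 and 20.9) and Runx3 (81.0 and 72.45) had lower means in BMP2ADV590 and were not called. Foxa2, Foxa3, Ihh, Mmp13 and Alpl were below the filter. Col10a1, the collagen gene of hypertrophic cartilage, rose from 192.5 ± 48.5 to 493 ± 43.7 CPM (1.36, adjusted p = 7.32e-06). The channel gene Panx3 (1.18, adjusted p = 0.000274), the parathyroid hormone receptor gene Pth1r (1.12, adjusted p = 0.000652) and the homeobox gene Dlx5 (0.61, adjusted p = 0.00164) rose too. Runx2 itself was at 0.03 (95% interval -0.19 to 0.24, adjusted p = 0.932). Against BMP2ADV20a, Col10a1, Panx3 and Dlx5 were called higher in BMP2ADV590, where 1.29% of all tested genes were. Only 4 of the 10 had a positive value there, with a median of -0.095. Of the 12 fits that left out 1 library, 4 lost this call of Panx3 (adjusted p up to 0.169) and 5 that of Dlx5 (up to 0.144). The call of Dlx5 was also lost with only the 2 groups compared (0.058). Against BMP2ADV148b, Col10a1 and Panx3 were called higher, beside 2.46% of all, and 9 of the 10 were positive (median 0.31). That call of Panx3 was lost without BMP2ADV148b replicate 1 (adjusted p = 0.0698). In BMP2ADV148b, Vegfa was lower than in BMP2ADV (-0.64, adjusted p = 0.0465), a call that limma-voom did not make (0.0631) and that was lost without any 1 of the 6 libraries compared (up to 0.265).

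Other Sox genes were mostly below the filter. Of 16, 5 were tested (Sox2, Sox4, Sox8, Sox12 and Sox13), and edgeR called 0 in BMP2ADV590 against BMP2ADV, with 1 at an unadjusted p under 0.05, 1 by DESeq2 and 0 by limma-voom. All 5 had a positive log2 fold change in that comparison, with a median of 0.28 against 0.00 over all tested genes. Sox4, with 212 ± 12.5 CPM in BMP2ADV and 258 ± 27.7 in BMP2ADV590, had a log2 fold change of 0.28 (adjusted p = 0.0517). The coactivators and cofactors of Sox9, among them Ep300, Crebbp and Med25, had 9 of 14 tested and a median of 0.06. edgeR, DESeq2 and limma-voom each called 0 of them in that comparison, with 2 at an unadjusted p under 0.05. Over all tested genes edgeR called 8.26% there. The share of all tested genes at an unadjusted p under 0.05 is not given here for that comparison, for either list. Phf2, the partner of Arid5b, was at 0.27 (adjusted p = 0.183).

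Among 9 genes whose products or pathways oppose Sox9, all tested, 2 were higher and 1 was lower in BMP2ADV590 than in BMP2ADV, with a median of -0.12, where 8.26% of all tested genes were called in either direction. Tcf7l2, a partner of beta-catenin, rose from 262 ± 25.5 to 353 ± 18.3 CPM (0.43, adjusted p = 0.00157). Hes1, a Notch effector, fell from 247 ± 23.8 to 194 ± 12.5 CPM (-0.35, adjusted p = 0.00921), which missed the threshold when BMP2ADV replicate 3 was left out (0.0709). Snai2 was higher by 0.28 (adjusted p = 0.0463), and this call was lost in 10 of the 12 fits that left out 1 library (up to 0.223).

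None of the relatives and repressors of Mef2c was called higher with it in this comparison. Of 7 other Mef2 and class IIa histone deacetylase genes 6 were tested, with 0 called higher in BMP2ADV590 than in BMP2ADV and 1 lower, beside the same 8.26%. The median was 0.00, 3 of the 6 had a positive value and 4 had an unadjusted p under 0.05. The share of all tested genes at that unadjusted p is not given here, so the 4 cannot be set against it. Hdac9, not called here, was at 3.91 ± 0.068 CPM in BMP2ADV and 6.37 ± 0.664 in BMP2ADV590. Mef2a fell from 61.4 ± 7.08 to 45.6 ± 3.45 CPM (-0.43, adjusted p = 0.00989), which missed the threshold when BMP2ADV replicate 2 (0.0673) or replicate 3 (0.0561) was left out. Hdac4, which holds Mef2c back in chondrocytes, was at -0.05 (adjusted p = 0.868). Against BMP2ADV20a, Hdac9 was higher by 1.04 (adjusted p = 0.0461), which 9 of the 12 fits without 1 library did not call (up to 0.224). Against BMP2ADV148b, Hdac7 was lower (-0.42, adjusted p = 0.0287), which 4 of those fits did not call (up to 0.132).

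Of the 8 other ligase genes of the NEDD4 family to which Wwp2 belongs, all were tested and 1 was called in BMP2ADV590 against BMP2ADV, with a median of 0.04. That share is near the 8.26% called over all tested genes. Nedd4 rose from 944 ± 48.9 to 1164 ± 170.2 CPM (0.30, adjusted p = 0.0231), which missed the threshold without BMP2ADV590 replicate 1 (0.182), BMP2ADV replicate 1 (0.0631) or BMP2ADV replicate 3 (0.116). Wwp1, the nearest relative of Wwp2, was at 0.07 (95% interval -0.21 to 0.34, adjusted p = 0.843).

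**Figure D4:**
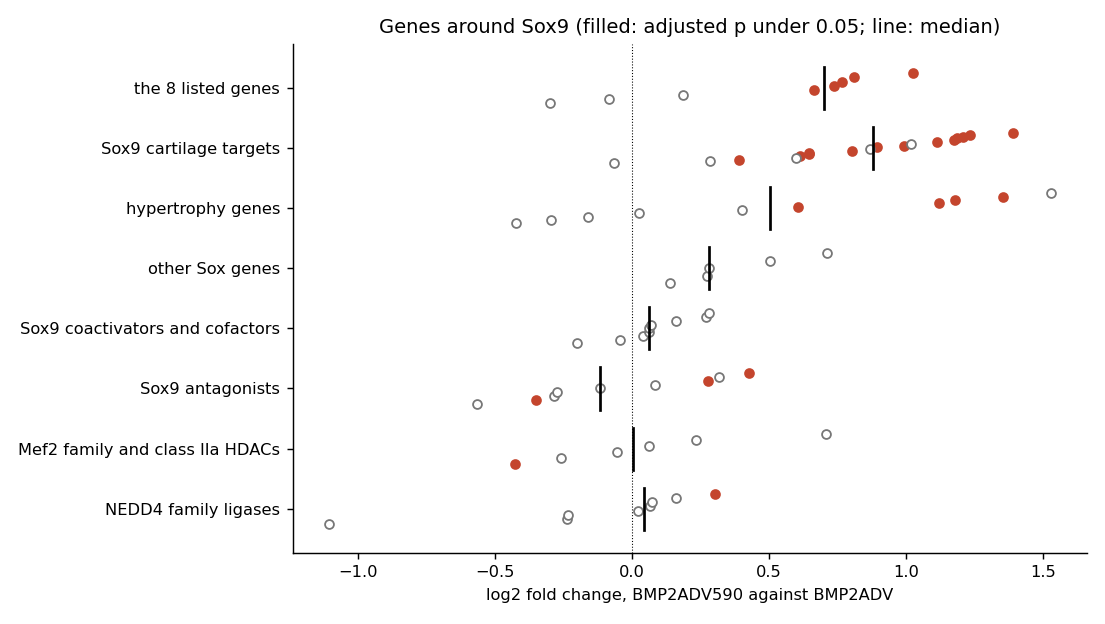
Log2 fold change in BMP2ADV590 against BMP2ADV for the tested genes of each list (points; filled where the edgeR adjusted p is under 0.05), with a line at the median of the list. The Sox9 targets have their median at 0.88, the 8 genes at 0.70, the hypertrophy genes at 0.50 and the other Sox genes at 0.28. Those of coactivators, Mef2 and HDAC genes and NEDD4 ligases lie at 0.06, 0.00 and 0.04, and that of the antagonists at -0.12.

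Markers of the labelled cell shape were present. All 12 fibroblast markers were tested, and their summed level was 21230 to 22500 CPM in BMP2ADV and 21810 to 24060 CPM in BMP2ADV590. Of these, Vim (log2 fold change 0.29, adjusted p = 0.00988) and Lum (0.89, adjusted p = 0.0305) were called higher in BMP2ADV590 than in BMP2ADV, where 4.37% of all tested genes were. A positive log2 fold change was found for 8 of the 12. Col1a1, Col1a2, Pdgfrb and Prrx1 had lower means in BMP2ADV590 and were not called. Neural crest and glia, where Sox9, Sox5 and Sox6 are also made, had 7 of 9 markers tested and a summed level of 178 to 268.5 CPM in BMP2ADV. The sum was 249 to 386 CPM with BMP2ADV20a, 231.5 to 359 with BMP2ADV148b and 419 to 495 with BMP2ADV590. All 7 had a positive log2 fold change in BMP2ADV590 against BMP2ADV, with a median of 0.40. Of them S100b, Erbb3 and Fabp7 were called higher, where 4.37% of all tested genes were. Sox10 and Foxd3 had 0 counts in all 12 libraries. S100b is made by chondrocytes as well. Muscle markers, where Mef2c is also made, summed to 14.1 to 16.6 CPM in BMP2ADV and 10.3 to 11.5 in BMP2ADV590, with Myod1, Myf5, Myf6, Ckm and Mymk at 0 counts. The only one tested, Acta1, was called lower (-0.53, adjusted p = 0.046), where 8.26% of all tested genes were called in either direction. Endothelial markers summed to 22.8 to 29.1 and 36.2 to 42.3 CPM, with Cdh5 at 0 counts. Of the 2 tested, Erg, a factor also known from cartilage, rose from 16.15 ± 2.73 to 32.7 ± 2.42 CPM (log2 fold change 1.01, adjusted p = 0.000655), while Tek, at 7.85 ± 1.88 and 4.92 ± 0.826 CPM, was not called. The share called higher over all tested genes was again 4.37%. Myeloid and lymphoid markers summed to 1.99 to 4.17 and 2.69 to 3.25 CPM. The part of such cells in the results was not tested.

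Counts of the mouse gene Bmp2, for which the plasmids are named, were scarce in all groups and lowest in the reference. The BMP2ADV libraries gave 1.30 ± 0.527 CPM of Bmp2, those of BMP2ADV20a 3.40 ± 0.693, those of BMP2ADV148b 5.36 ± 2.58 and those of BMP2ADV590 5.05 ± 0.687 (n = 3). Whether these reads come from the plasmid or the cell cannot be told apart. Libraries that read 3' ends can miss a plasmid transcript whose 3' end differs from that of the mouse gene. The output of the plasmids was therefore not measured, and the part of BMP2 level in the results was not tested.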

How the data were processed

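RNA of 12 libraries (QuantSeq, a kit that primes on poly(A) tails and so counts the 3' ends of transcripts) was analysed. Per the submitters' processing notes the tools were FastQC 0.11.5, STAR 2.5.2a and HTSeq 0.6.0, on GRCm38. The authors deposited raw counts per gene, 1 file a library, without normalisation. The annotation release, strand setting and counting mode were not given in the sources used here. Reads of overlapping genes on opposite strands can therefore not be told apart. Lines that name no gene held 52.2% to 54.4% of the records and were left out, which leaves 9236431 to 14727288 gene counts a library. The BMP2ADV590 libraries had the lowest such shares (52.59%, 52.65% and 52.24%), with 52.9% or more in all others. The part of this difference in the results was not tested. Within the groups, no pair of libraries looked like the same library deposited again, and pairs across groups were not compared.

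Symbols came from GENCODE M21 (47224 of 47643 genes). The main model had 1 mean per group over the 12 libraries (edgeR 4.0.16, R 4.3.3, TMM scaling, filterByExpr, quasi-likelihood F-test). P-values were adjusted by Benjamini-Hochberg over the 13229 genes tested and called at 0.05. CPM are given as mean ± SD (n = 3), and 95% intervals come from the edgeR fit.

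The members and gene lists were chosen with earlier results of these data known. From each list up to 4 called genes a comparison were named by smallest p, and other names in a list were chosen after their values were seen. The lists were Sox9 targets, other Sox genes, Sox9 coactivators, Sox9 antagonists, Mef2 and HDAC genes, hypertrophy genes, NEDD4 ligases, and markers of fibroblasts, muscle, neural crest and glia, blood cells and endothelium. Genes most like a member were taken for members called among the 4 groups, 5 for Sox9 and 2 for the others. Alternatives were RLE size factors, no filter, DESeq2 1.42.0, limma-voom (limma 3.58.1), a replicate block, only the groups compared, and each library left out.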

Additional observations from a re-analysis of the deposited data

How the results depend on the processing

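Of the 48 log2 fold changes of the 8 genes, 13 were called, and 9 of these kept the call under all 18 alternatives. The other 4 are Sox5 in BMP2ADV590 against BMP2ADV and Sox9, Mef2c and Wwp2 in BMP2ADV590 against BMP2ADV20a. None of the 13 changed sign. With 1 library left out, the genes called among the 8 numbered 4 to 5 in BMP2ADV590 against BMP2ADV, 1 to 5 against BMP2ADV20a (1 without BMP2ADV20a replicate 1 or replicate 2), 4 to 5 against BMP2ADV148b and 4 to 5 among the 4 groups. Sox9 targets called in BMP2ADV590 against BMP2ADV numbered 10 to 14. In BMP2ADV20a against BMP2ADV the 0 became 2 without a filter on low counts and 1 under DESeq2, and in BMP2ADV148b it became 1 without the filter. The cause of these moves was not tested. Of 35 uncalled values, 6 were called under some alternative, among them Sox5 in BMP2ADV590 against BMP2ADV20a without BMP2ADV20a replicate 3 (adjusted p = 0.0332) and against BMP2ADV148b without BMP2ADV148b replicate 3 (0.0296). Libraries with the same number did not deviate together: none of 18 pairs had a correlation over 0.1 (-0.113 to 0.0715), and 1 of 12 libraries correlated best with its own number. With the replicate number as a block, the 8 genes kept 5, 4 and 4 calls in BMP2ADV590 against BMP2ADV, BMP2ADV20a and BMP2ADV148b, and the targets 12. The block lost the calls of Snai2 in BMP2ADV590 against BMP2ADV (adjusted p = 0.0765), Hdac9 against BMP2ADV20a (0.0736) and Vegfa in BMP2ADV148b (0.0678), as well as those of Snai2 (0.0848) and Dlx5 (0.0562) against BMP2ADV20a. Counts of 56 to 286 a library limit Arid5a and Sox5, whereas Sox9 had 14613 or more.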
